A study of Homo sapiens with 6 samples.

Results

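Integrins are the receptors by which cells hold on to the extracellular matrix, and 10 of their subunit genes were followed across A549 and BEAS-2B cells exposed to TGF-β1. The genes were taken by symbol (ITGA2, ITGA3, ITGA5, ITGA6, ITGA11, ITGAV, ITGB1, ITGB4, ITGB5 and ITGB6) from tables of 25737 gene entries, 24462 of them different symbols. Each of the 10 symbols had 1 entry. They supplied between 94.1% and 97.9% of the counts of all 26 integrin subunit genes in every library.

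Messenger RNA was counted with a 3′ tag assay, which reads the end of each transcript, so that counts do not grow with transcript length. Wild-type A549 cells, a line from human lung carcinoma, and wild-type BEAS-2B cells, an immortalised line from bronchial epithelium, were left untreated or given 1 or 5 ng/mL of TGF-β1 for 48 h. The treated cells were in medium with 1% serum; whether the control cells had the same medium is not given in the sources used here, so an effect of serum and one of TGF-β1 cannot be told apart where they differed. There was 1 library for each of the 6 conditions and hence no replicate spread and no test. The intervals below are exact 95% intervals that cover counting error only.

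The libraries held 4120624 to 7841350 counts. Counts were scaled with TMM factors, which correct for library size and composition, to a common size, and these scaled values are called normalized counts. A gene was called higher or lower when its fold change was at least 2 and its log2(normalized count + 1) was at least 7 in 1 or both of the libraries compared, which is a normalized count of 127. The verbs rose and fell are kept for such calls. BEAS-2B cells held no EPCAM count and at most 2 CDH1 counts in any library, both genes being markers of epithelium, but KRT8 (175 to 372 counts) and KRT18 (717 to 1418) were present. THY1, a fibroblast marker, had 1160 to 1410 counts in BEAS-2B and 4 to 25 in A549. All 5 fibroblast markers listed summed to 1282, 1417 and 1576 counts in BEAS-2B at 0, 1 and 5 ng/mL. Only 3, 2 and 3 of them were above 3 counts there. In A549 the 5 summed to 14, 128 and 30. The surfactant genes of alveolar cells had at most 2 counts in A549, but another of the 7 alveolar type 2 markers listed rose at both doses. Those 7 summed to 73, 259 and 198 counts in A549.

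An integrin is a pair of 1 α and 1 β chain, and the α chain largely decides which ligand is held. The β1 chain pairs with many α chains, among them α5 for fibronectin, α3 and α6 for laminin, and α2 and α11 for collagen. The αV chain pairs with several β chains that bind the RGD motif, found in fibronectin and in the latency peptide of TGF-β, and pulling on that peptide through αVβ6 frees active TGF-β. The α6β4 pair ties epithelial cells to laminin at hemidesmosomes.

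In A549, 4 of the 10 subunits rose at 1 ng/mL (ITGA5, ITGAV, ITGA3 and ITGA11) and 1 fell (ITGA6), against 10.9% and 12.6% of all genes that reached the minimum. At 5 ng/mL 6 rose, as ITGA2 and ITGB4 joined them, and 0 fell, where 16.1% of all genes were called higher and 17.1% lower. In BEAS-2B, ITGA5, ITGAV and ITGA11 rose and ITGA6 and ITGB4 fell at 1 ng/mL, against 5.66% and 9.13% of all genes. ITGB1 passed the limit too at 5 ng/mL, so that 4 rose and 2 fell, against 7.33% and 11.6%. Of the 10 subunits, 9 reached the minimum in each A549 comparison and 8 in each BEAS-2B comparison with the control. Their median log2 fold change was 0.82 at 1 ng/mL and 1.44 at 5 ng/mL in A549, beside 0.09 and 0.11 for all genes. In BEAS-2B the medians were 0.81 and 1.03, beside 0.01 and 0.03. ITGA11 is the highest of the subunits there even at its lower bound, so using that bound could not change these medians. In bulk cultures, more RNA per cell and more cells of a kind cannot be told apart. Both doses in a line share the same control library, so their folds are not independent of each other.

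**Figure D1:**
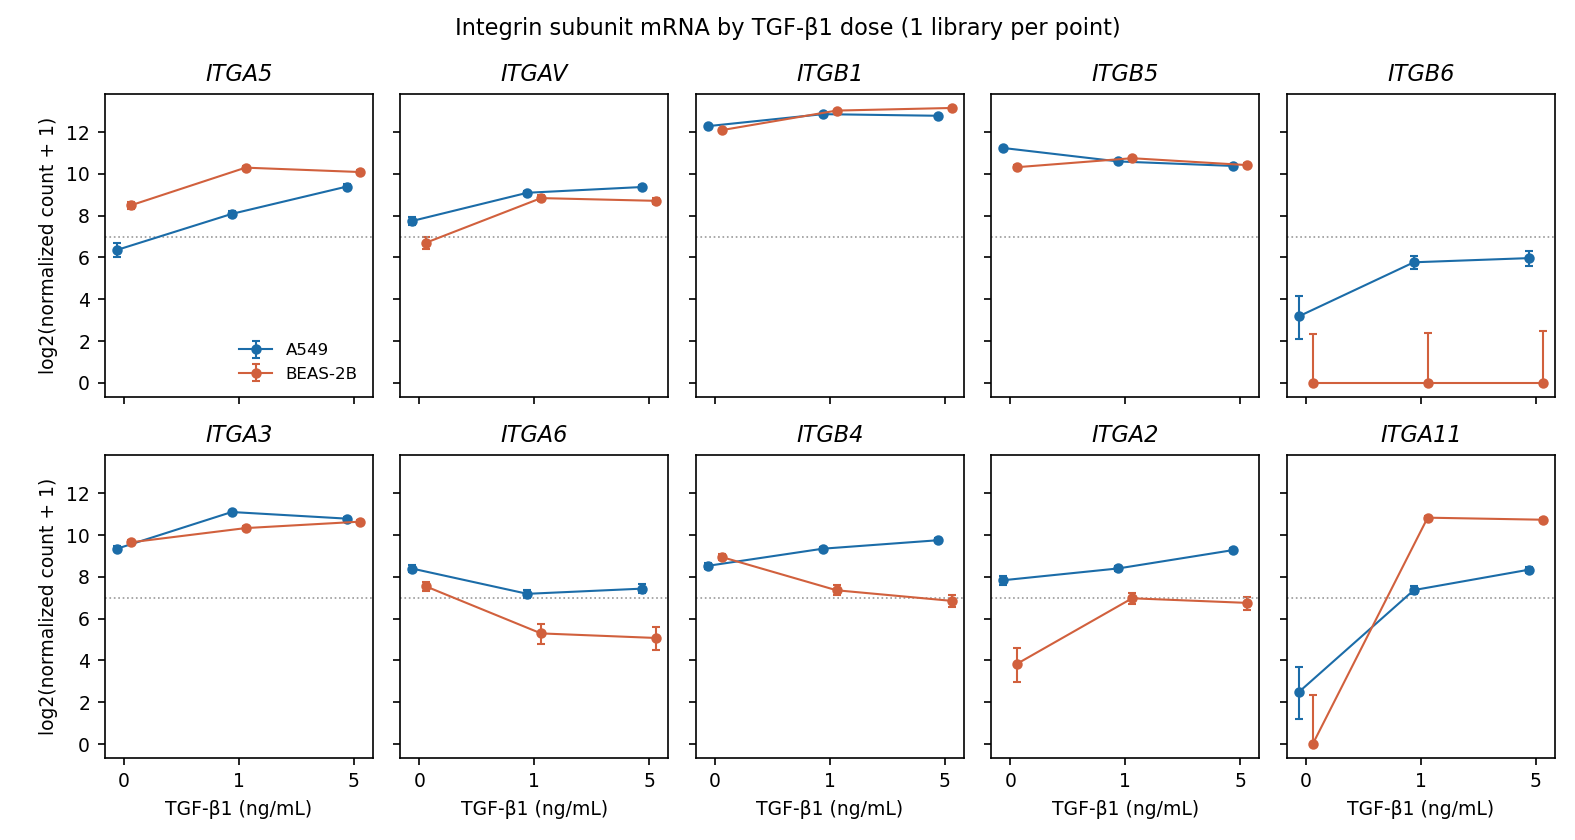
Level of each subunit as log2(normalized count + 1) on the y axis against the TGF-β1 dose in ng/mL on the x axis, with A549 in blue and BEAS-2B in orange, 1 library per point, bars for the 95% counting interval and a dotted line at the minimum of 7. ITGB4 went up in A549 (8.53 to 9.75) and down in BEAS-2B (8.95 to 6.85), and ITGA11 came from 0 counts in control BEAS-2B to 10.83 at 1 ng/mL.

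**Figure D2:**
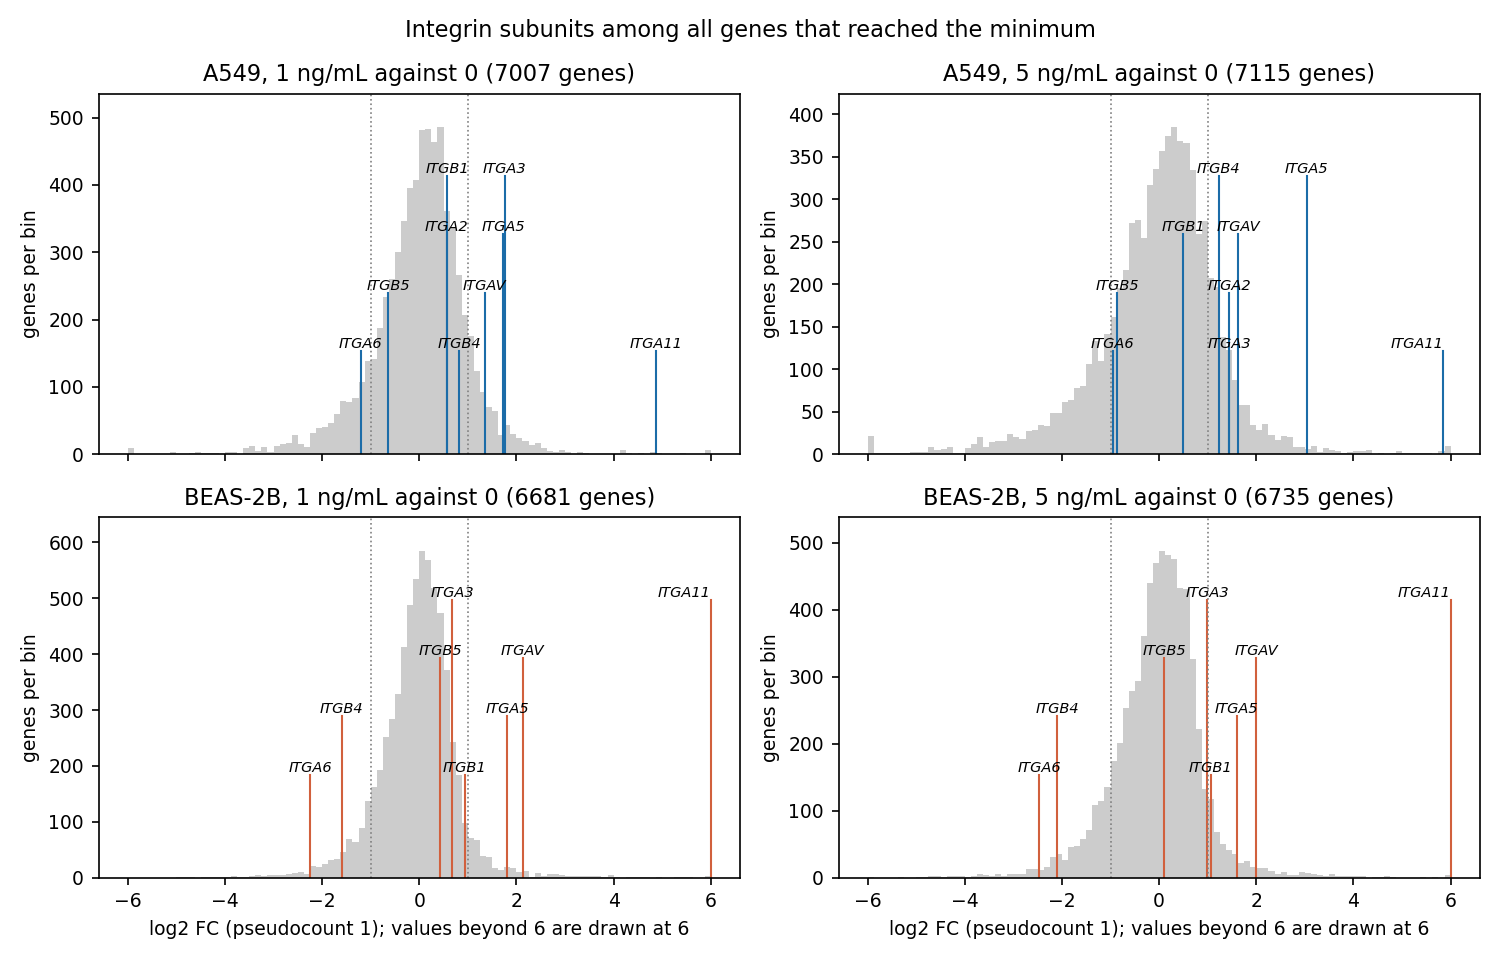
Histograms of the log2 fold change (x axis) of all genes that reached the minimum in each comparison with the control, as genes per bin (y axis), with a coloured stalk for each subunit (its height only separates the labels) and dotted lines at a fold change of 2 in either direction. ITGA11 lay farthest to the right of the subunits in each comparison, and its BEAS-2B values beyond 6 are drawn at 6.

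The fibronectin receptor chain α5, encoded by ITGA5 on chromosome 12, rose in both lines. In A549 its counts were 70, 394 and 740 at 0, 1 and 5 ng/mL, or 81.1, 271 and 671 normalized counts. In BEAS-2B they were 322, 1119 and 864, or 359, 1259 and 1088 normalized. Every treated library stood above the control of its line, and control BEAS-2B held 4.43 times (3.41 to 5.82) the level of control A549. The rise in A549 was 3.34-fold (2.58 to 4.37) at 1 ng/mL and 8.28-fold (6.47 to 10.7) at 5 ng/mL. The step from 1 to 5 ng/mL was itself 2.48-fold (2.19 to 2.81), and ITGA5 was the single subunit called between the doses in A549, where 3.4% of all genes were called in either direction. In BEAS-2B the rise was 3.51-fold (3.09 to 3.98) at 1 ng/mL and 3.03-fold (2.66 to 3.45) at 5 ng/mL. No subunit was called between the doses in that line, against 0.904% of all genes. At 5 ng/mL the A549 fold was 2.73 times (2.07 to 3.60) the BEAS-2B fold, whereas at 1 ng/mL the ratio was 0.952 (0.718 to 1.26), an interval that holds 1.

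RefSeq promoter windows, from 250 bases before to 50 bases after the start of the gene in build GRCh38.p14, were searched for 4 short motifs on both strands. The motifs were TGANTCA of AP-1, CAGAC of SMAD factors, GGAATG of TEAD and GGGCGG of SP1, factors that act at many TGF-β responsive genes. Among all 35116 promoters of this length the motifs occurred in 7.71%, 45.3%, 14.0% and 45.0%, in that order. A window was found for 8 of the 10 subunits, and ITGA3 and ITGB4 were the others. The ITGA5 window held all 4 motifs, and those of ITGA11 and ITGB6 held none. These 3 are printed because ITGA5 rose in both lines, ITGA11 had the largest folds of the 10 and ITGB6 was counted in A549 alone. ITGA5 was not alone in its rise, as ITGAV, which is not printed, and ITGA11 rose in both lines too. The 251 bases up to and including the first base of the gene are given 5′ to 3′, with motif matches in capitals.
ITGA5, chr12:54419266-54419516, minus strand: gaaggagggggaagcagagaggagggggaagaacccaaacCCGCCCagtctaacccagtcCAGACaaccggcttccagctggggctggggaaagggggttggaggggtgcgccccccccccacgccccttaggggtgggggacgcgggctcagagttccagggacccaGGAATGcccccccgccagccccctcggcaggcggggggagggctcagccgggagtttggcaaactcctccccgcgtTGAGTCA
ITGA11, chr15:68432163-68432413, minus strand: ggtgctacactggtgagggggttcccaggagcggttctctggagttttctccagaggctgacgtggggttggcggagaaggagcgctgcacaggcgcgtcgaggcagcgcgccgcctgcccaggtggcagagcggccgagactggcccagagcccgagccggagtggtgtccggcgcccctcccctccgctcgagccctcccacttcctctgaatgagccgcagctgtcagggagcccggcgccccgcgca
ITGB6, chr2:160200272-160200522, minus strand: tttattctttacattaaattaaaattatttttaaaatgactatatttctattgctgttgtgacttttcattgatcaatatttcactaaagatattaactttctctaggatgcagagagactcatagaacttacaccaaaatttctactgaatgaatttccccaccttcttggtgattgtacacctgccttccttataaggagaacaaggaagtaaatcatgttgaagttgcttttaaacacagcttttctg
Counting the first base of the gene as 1 and the base before it as -1, the AP-1 letters of ITGA5 ran from -6 to 1, those of TEAD from -82 to -77, those of SMAD from -190 to -186 and those of SP1, on the opposite strand, from -210 to -205. The ITGB6 window was 31.7% G and C, lower than in all but 1.74% of the promoters, while those of ITGA5 and ITGA11 were at 69.3% and 72.0%, above the median of 58.7%. Of the other subunits, ITGB1 held SMAD, TEAD and SP1 letters, ITGAV held SMAD letters in 1 of its 2 windows, and ITGA2, ITGA6 and ITGB5 held SP1 letters only. A match describes the sequence and was not tested as a binding site.

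ITGAV, on chromosome 2, encodes the αV chain that is shared by the receptors for fibronectin, vitronectin and latent TGF-β. Its counts were 185, 796 and 730 in A549 and 93, 407 and 332 in BEAS-2B, or 214, 547 and 662 and 104, 458 and 418 normalized. The treated libraries of both lines lay above both controls. It rose 2.55-fold (2.17 to 3.01) and 3.09-fold (2.63 to 3.65) at 1 and 5 ng/mL in A549. In BEAS-2B the rises were 4.41-fold (3.52 to 5.59) and 4.03-fold (3.19 to 5.13). The BEAS-2B fold was 1.73 times (1.31 to 2.28) the A549 fold at 1 ng/mL, and at 5 ng/mL the ratio of 1.30 had an interval (0.985 to 1.73) that holds 1.

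The β chains that αV pairs with did not move as one. ITGB5, on chromosome 3, encodes β5 and was the second most abundant β chain, with 2086, 2252 and 1469 counts in A549 and 1147, 1531 and 1088 in BEAS-2B. Its normalized counts were 2417, 1547 and 1333 in A549, so the control library was the highest of that line. The values in A549 were 1.56-fold (1.47 to 1.66) lower at 1 ng/mL and 1.81-fold (1.70 to 1.94) lower at 5 ng/mL, both short of the limit for a call. In BEAS-2B, normalized counts were 1279, 1723 and 1370, a ratio of 1.35 (1.25 to 1.45) at 1 ng/mL and of 1.07 (0.985 to 1.16) at 5 ng/mL. The interval at 5 ng/mL holds 1, and scaling by total counts turned its sign (log2 fold change of 0.10 against -0.03). The ratio of the BEAS-2B to the A549 fold at 5 ng/mL was 1.94 (1.75 to 2.16).

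ITGB6, on chromosome 2, encodes the β6 chain of epithelial cells, which activates latent TGF-β with αV. In A549 it had 7, 78 and 68 counts, or 8.11, 53.6 and 61.7 normalized, and in BEAS-2B it had 0 counts in each library. A count of 0 allows up to 3 counts there, or a CPM (counts per 1000000 counts) of 0.652 to 0.728 across the libraries. The A549 ratios to the control were 6.61 (3.06 to 17.0) at 1 ng/mL and 7.61 (3.50 to 19.6) at 5 ng/mL, but no library reached the minimum, so ITGB6 was not called. Its level in A549 was at least 15.9-fold higher than in BEAS-2B at 1 ng/mL and at least 16.3-fold higher at 5 ng/mL, set against 3 counts in the BEAS-2B library. A pool was made of the αV partners other than β1, which are β3, β5, β6 and β8. It leaves out ITGB1, which had 4309, 10819 and 7764 counts in A549. Within the pool, ITGB6 made up 0.332%, 3.31% and 4.41% of the counts in A549, while ITGB5 made up 98.9%, 95.6% and 95.3%. In BEAS-2B, ITGB5 supplied 88.5%, 95.2% and 90.7% of this pool, ITGB8 went from 99 counts in the control to 4 at each dose, and ITGB3 had 50, 74 and 108 counts and rose 2.44-fold at 5 ng/mL.

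The shared β1 chain, encoded by ITGB1 on chromosome 10, was the most abundant subunit in all 6 libraries. Its counts were 4309, 10819 and 7764 in A549, or 4992, 7433 and 7044 normalized. In BEAS-2B they were 3919, 7435 and 7243, or 4371, 8366 and 9123 normalized. The 4 treated libraries were all above both controls. The ratio to the control was 1.49 (1.44 to 1.54) and 1.41 (1.36 to 1.46) in A549, under the limit for a call. In BEAS-2B it was 1.91 (1.84 to 1.99) at 1 ng/mL and 2.09 (2.01 to 2.17) at 5 ng/mL, where ITGB1 was called higher, a call lost when counts were scaled by library totals (log2 fold change of 0.93 against 1.06). The BEAS-2B fold at 5 ng/mL was 1.48 times (1.40 to 1.56) the A549 fold. As a share of all β chain counts, ITGB1 went from 63.4% (62.3% to 64.6%) in control A549 to 76.6% and 75.7%, and from 69.3% (68.0% to 70.5%) in control BEAS-2B to 80.9% and 84.8%. ITGB5 took 30.7%, 15.9% and 14.3% of the A549 pool and 20.3%, 16.7% and 12.7% of the BEAS-2B pool.

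**Figure D3:**
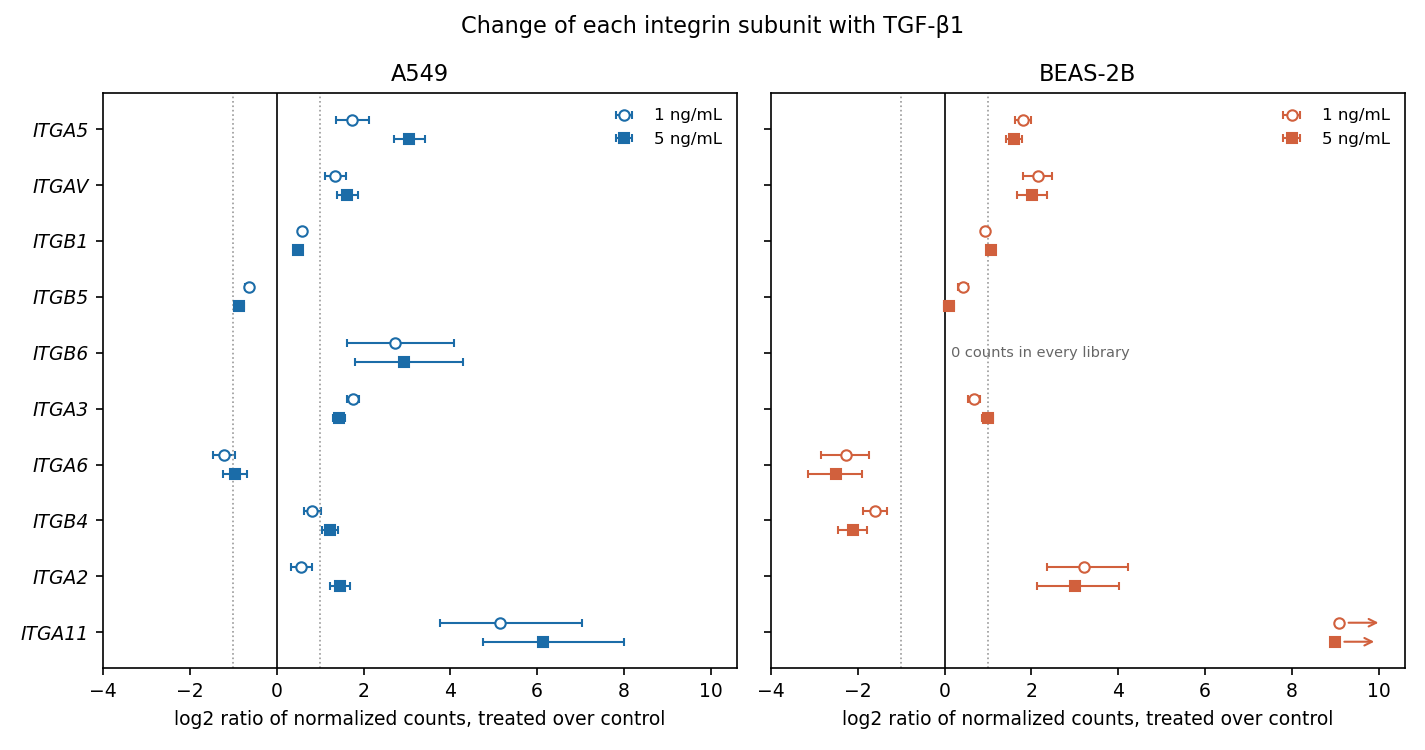
Ratio of normalized counts of each treated library to the control of its line on a log2 x axis, 1 row per subunit, with open circles for 1 ng/mL, filled squares for 5 ng/mL, bars for the 95% counting interval and dotted lines at a fold of 2 in either direction. The symbols of ITGB4 lie on opposite sides of 0 in the 2 lines (ratios of 2.34 and 0.232 at 5 ng/mL), and the arrows mark the ITGA11 values of BEAS-2B as lower bounds.

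The laminin receptors split by chain and by line. ITGA3, on chromosome 17, encodes α3 of the α3β1 laminin receptor of epithelia, and its counts were 561, 3204 and 1948 in A549 and 721, 1147 and 1270 in BEAS-2B. As normalized counts these were 650, 2201 and 1767, and 804, 1291 and 1600. The rise in A549 was 3.39-fold (3.10 to 3.71) at 1 ng/mL and 2.72-fold (2.47 to 2.99) at 5 ng/mL. In BEAS-2B the ratios were 1.60 (1.46 to 1.76) and 1.99 (1.81 to 2.18), the latter a log2 fold change of 0.99, just under the limit, which became 1.01 and a call with DESeq2 size factors. The A549 fold was 2.11 times (1.85 to 2.40) the BEAS-2B fold at 1 ng/mL and 1.37 times (1.20 to 1.56) at 5 ng/mL.

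ITGA6, on chromosome 2, encodes α6, the laminin chain that pairs with β1 or β4, and was lower in every treated library than in its control. It had 290, 211 and 190 counts in A549 and 166, 34 and 26 in BEAS-2B, or 336, 145 and 172 and 185, 38.3 and 32.7 normalized. In A549 it fell 2.32-fold (1.93 to 2.78) at 1 ng/mL and was 1.95-fold (1.62 to 2.35) lower at 5 ng/mL, which was not called. In BEAS-2B it fell 4.84-fold (3.33 to 7.22) and 5.65-fold (3.72 to 8.91). The A549 ratio to the control was 2.90 times (1.85 to 4.56) the BEAS-2B ratio at 5 ng/mL. Of the α3 and α6 counts together, α6 made up 34.1% (30.9% to 37.4%) in control A549 and 6.18% and 8.89% after treatment. In BEAS-2B its share was 18.7% (16.2% to 21.4%), 2.88% and 2.01%.

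ITGB4, on chromosome 17, encodes the hemidesmosome chain β4, which pairs with α6 alone, and it moved in opposite directions in the 2 lines. In A549 it had 318, 948 and 950 counts, or 368, 651 and 862 normalized, and both treated libraries were above the control. In BEAS-2B it had 443, 145 and 91 counts, or 494, 163 and 115 normalized, and both were below it. The A549 ratio was 1.77 (1.56 to 2.01) at 1 ng/mL, and ITGB4 rose 2.34-fold (2.06 to 2.66) at 5 ng/mL. In BEAS-2B it fell 3.03-fold (2.51 to 3.68) and 4.31-fold (3.43 to 5.46). The folds of the lines were 5.35 times (4.27 to 6.71) apart at 1 ng/mL and 10.1 times (7.78 to 13.1) apart at 5 ng/mL. Control cells differed less, with 1.34 times (1.16 to 1.55) more ITGB4 in BEAS-2B, whereas at 5 ng/mL A549 held 7.52 times (6.06 to 9.43) the BEAS-2B level. With α6 lower in both lines, shares of the α6 and β4 counts were compared between 0 and 5 ng/mL. ITGB4 went from 52.3% (48.2% to 56.3%) to 83.3% (81.0% to 85.5%) of them in A549. In BEAS-2B it had 72.7% (69.0% to 76.2%) and 77.8% (69.2% to 84.9%), and these intervals overlap.

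The 3′ end of ITGB4 overlaps GALK1 on the other strand, and whether the counting used strand is not given in the sources used here. GALK1, a galactose kinase gene, had 56, 277 and 160 counts in A549 and 116, 68 and 104 in BEAS-2B. Its ratio was 2.24 (1.64 to 3.09) in A549 and 1.01 (0.769 to 1.33) in BEAS-2B at 5 ng/mL, so reads of the 2 genes cannot be told apart where both moved. At 1 ng/mL GALK1 was higher than the control in A549 (277 against 56 counts) and lower in BEAS-2B (68 against 116), the directions of ITGB4. In BEAS-2B, where ITGB4 fell at 5 ng/mL, GALK1 held 104 counts beside the 91 of ITGB4.

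Other genes of hemidesmosomes and their partners were counted beside ITGB4. PLEC, which encodes plectin that links β4 to keratins, rose 3.60-fold and 2.96-fold in A549 and had ratios of 1.03 and 1.44 in BEAS-2B. COL17A1, KRT5 and KRT14 had at most 2 counts in any library. CD151, a tetraspanin that binds laminin receptors, rose 2.68-fold and 4.83-fold in A549 and was at 1.85 and 2.08 in BEAS-2B, the latter a call. CD9, another tetraspanin, had 832, 51 and 5 counts in A549 and 103, 5 and 0 in BEAS-2B. Of the 6 hemidesmosome genes listed, of which 3 reached the minimum in each line, 2 rose in A549 and 1 in BEAS-2B at 5 ng/mL and 0 fell in either. Of the 5 tetraspanins, of which 4 reached the minimum in each line, 2 rose and 1 fell in A549 and 1 rose in BEAS-2B. CD151 is in both lists, so it is counted in each, and in BEAS-2B it is the 1 gene that rose in both. Of all genes, 16.1% were called higher and 17.1% lower in A549 at that dose, and 7.33% and 11.6% in BEAS-2B. The summed epithelial markers were lower after treatment in both lines. In A549 CDH1 had 640, 30 and 8 counts and the 5 markers summed to 4840, 2179 and 2039 TMM-scaled CPM. In BEAS-2B they summed to 399.5, 203.1 and 246.0, with 0 of them called, and their part in the laminin receptor values was not tested.

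Of the 10 subunits a collagen receptor chain had the widest folds. ITGA11, on chromosome 15, encodes α11, a receptor chain for fibrillar collagen that is best known from fibroblasts. It had 4, 239 and 357 counts in A549, or 4.63, 164 and 324 normalized, and 0, 1621 and 1353 in BEAS-2B, or 0, 1824 and 1704 normalized. Both controls were at or near 0 and all 4 treated libraries were above the minimum. The rise in A549 was 35.4-fold (13.7 to 131) at 1 ng/mL and 69.9-fold (27.1 to 258) at 5 ng/mL. In BEAS-2B it was at least 545-fold higher at 1 ng/mL and at least 509-fold higher at 5 ng/mL, with the control set at 3 counts. After treatment BEAS-2B held 11.1 times (9.69 to 12.8) the A549 level at 1 ng/mL and 5.26 times (4.68 to 5.93) at 5 ng/mL. The step from 1 to 5 ng/mL was 1.97-fold (1.67 to 2.33) in A549 and 0.934-fold (0.869 to 1.00) in BEAS-2B.

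ITGA2, on chromosome 5, encodes α2 of the α2β1 collagen and laminin receptor of epithelia and platelets. Its counts were 197, 492 and 686 in A549 and 12, 111 and 85 in BEAS-2B, or 228, 338 and 622 and 13.4, 125 and 107 normalized. All 3 A549 libraries lay above all 3 BEAS-2B libraries. The A549 ratio was 1.48 (1.25 to 1.76) at 1 ng/mL, and ITGA2 rose 2.73-fold (2.32 to 3.21) at 5 ng/mL. In BEAS-2B the ratios of 9.33 (5.13 to 18.6) and 8.0 (4.35 to 16.1) rested on levels below the minimum and were not called. The BEAS-2B fold was 6.30 times (3.40 to 11.7) the A549 fold at 1 ng/mL and 2.93 times (1.57 to 5.48) at 5 ng/mL.

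The make-up of the collagen-binding α chains (α1, α2, α10 and α11) shifted in each line. ITGA2 supplied 88.7% (83.8% to 92.6%) of their 222 counts in control A549, and 58.2% and 58.5% after treatment, when ITGA11 supplied 28.3% and 30.4%. In control BEAS-2B, ITGA1 supplied 87.4% of 95 counts, and after treatment ITGA11 supplied 89.6% (88.1% to 90.9%) and 89.2% (87.6% to 90.8%). ITGA1, which encodes a further collagen receptor chain, had 83, 77 and 76 counts in BEAS-2B, with ratios of 0.936 and 1.03 to the control. In A549 it was higher after treatment, with 17, 108 and 130 counts, or 19.7, 74.2 and 118 normalized. Those levels were below the minimum and were not called. ITGA1 supplied 7.66%, 12.8% and 11.1% of the collagen-binding α counts of A549. Of all α chain counts, ITGA11 made up 34.8% (33.4% to 36.2%) and 32.9% (31.5% to 34.4%) in treated BEAS-2B, above ITGA3 with 24.6% and 30.9%. In A549, ITGA11 made up 4.18% and 7.16%, and ITGA3 stayed the most counted α chain with 37.1%, 56.0% and 39.1%. ITGA5 took 4.63%, 6.88% and 14.8% of the α counts in A549 and 20.2%, 24.0% and 21.0% in BEAS-2B.

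**Figure D4:**
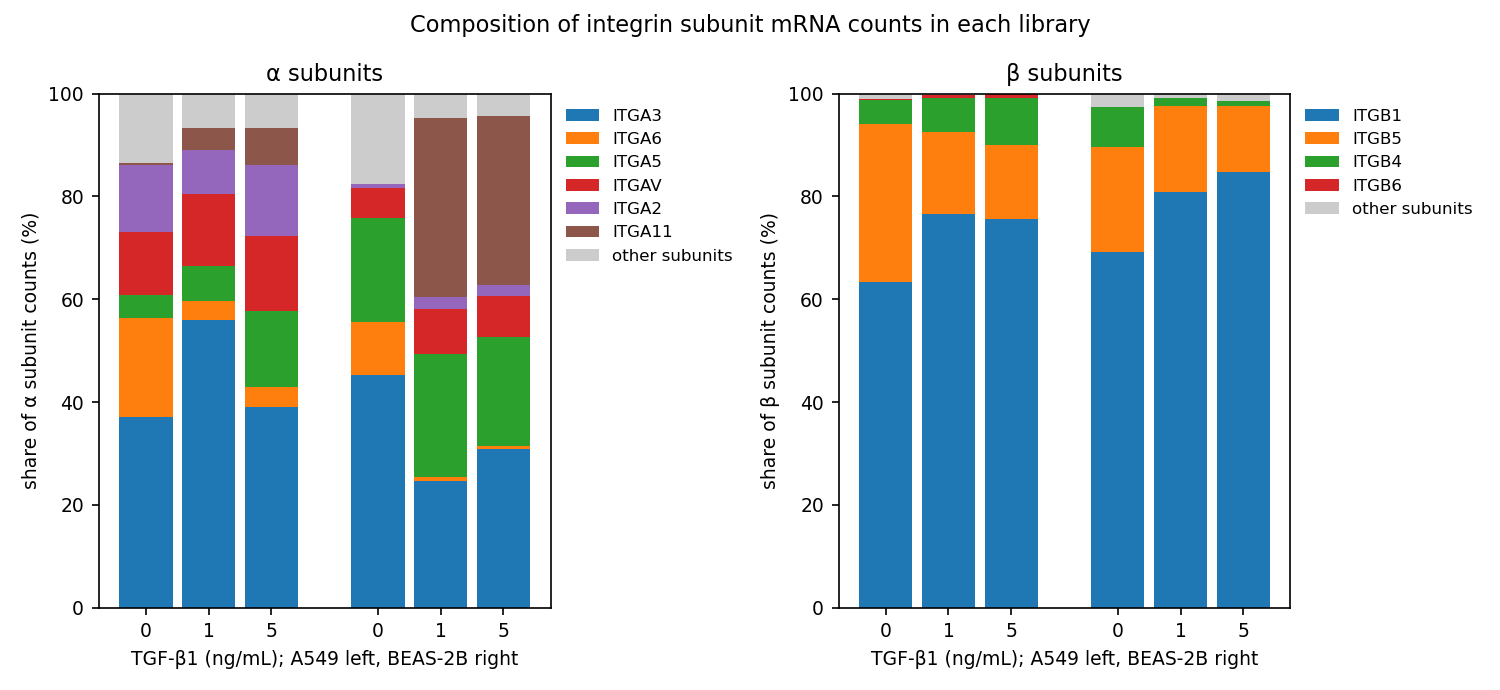
Share of each subunit among the counts of all 18 α chains (left) and all 8 β chains (right), in percent on the y axis, by TGF-β1 dose in ng/mL and line on the x axis, with all other subunits in grey and 1 library per bar. ITGA11 fills 34.8% and 32.9% of the α counts in treated BEAS-2B and none of the control, and ITGB1 is the widest band of every β bar (63.4% to 84.8%).

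Between the control libraries 8 of the subunits reached the minimum. Of these, 2 were called higher in A549 (ITGAV and ITGA2) and 1 higher in BEAS-2B (ITGA5), against 18.1% and 18.9% of all genes. For 8 subunits these counts are near the shares of all genes. ITGA2 stood out with 17.1 times (9.54 to 33.6) the BEAS-2B level, and ITGAV had 2.07 times (1.60 to 2.68). At 5 ng/mL 9 subunits reached the minimum. The calls were ITGA6, ITGB4 and ITGA2 higher in A549 and ITGA11 higher in BEAS-2B, against 14.8% and 12.1% of all genes. The 1 call of 9 in BEAS-2B is near the share of all genes. ITGA6 was 5.26 times (3.48 to 8.27) and ITGA2 5.81 times (4.63 to 7.37) the BEAS-2B level. ITGB1, ITGB5, ITGAV and ITGA3 were not called between the lines at 5 ng/mL, with A549 to BEAS-2B ratios of 0.772, 0.973, 1.58 and 1.10.

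The other 16 integrin subunits were scarce. In A549 0 of them were called at 5 ng/mL, where 1 reached the minimum, and in BEAS-2B 1 rose (ITGB3) and 1 fell (ITGA7, 2.91-fold). Among the chains of leukocyte integrins, ITGAE, which encodes αE, had 149, 179 and 138 counts in A549 and 59, 77 and 52 in BEAS-2B, and was the only one of the 16 to reach the minimum in A549. It supplied 9.85% of the α chain counts of control A549. ITGB2 had 55, 8 and 4 counts in A549 and 0 in BEAS-2B, and ITGAL had at most 5. No gene of the leukocyte, platelet and endothelial marker lists reached the minimum in any comparison, and PTPRC had at most 4 counts. ITGA2B, the platelet chain, had at most 3 counts.

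Genes for the ligands were counted from lists by function, to be read against the 16.1% of all genes called higher and 17.1% called lower in A549 at 5 ng/mL and the 7.33% and 11.6% in BEAS-2B. Of 10 collagen genes, 7 rose in A549, where 7 reached the minimum, and 5 in BEAS-2B, where 8 did, at 5 ng/mL. Of these 0 fell in either line. COL1A1, a chain of the fibrillar collagen that α11β1 and α2β1 hold, rose 20.3-fold and 11.5-fold. Of 10 genes for fibronectin and other RGD ligands, 3 rose and 1 fell in A549, where 5 reached the minimum, and 5 rose and 1 fell in BEAS-2B, where 8 did. FN1, which encodes fibronectin, rose 2.92-fold in A549 and 15.6-fold in BEAS-2B. Among 11 laminin chains, 1 rose and 0 fell in A549, where 4 reached the minimum. In BEAS-2B, where 5 did, 2 rose and 2 fell. Those that fell were LAMA5, the α5 chain, by 12.7-fold, and LAMB2, the β2 chain, by 3.23-fold. In the latent TGF-β complex, 6 of 8 genes reached the minimum in each line. Of the 8, 4 rose in A549 and 3 in BEAS-2B, among them TGFB1 itself with 6.36-fold and 4.87-fold.

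Inside the cell, integrins are switched on when talin and kindlin bind the β tail. Of 8 activator genes, 2 rose in A549, where 5 reached the minimum, and 1 rose in BEAS-2B, where 6 did, at 5 ng/mL. These counts and those below stand against 16.1% of all genes called higher and 17.1% lower in A549 and 7.33% and 11.6% in BEAS-2B. FERMT1, which encodes the epithelial kindlin, rose 5.61-fold and 3.54-fold, and TLN1, the main talin gene, was at 1.65 and 1.18. Of 4 inhibitor genes, 1 rose in A549, where 3 reached the minimum, and 2 rose and 1 fell in BEAS-2B, where 4 did. FLNA, which encodes filamin A that competes with talin, rose 5.88-fold and 2.08-fold. Of 17 adaptors and kinases, 4 rose and 3 fell in A549 and 3 rose and 2 fell in BEAS-2B, with 16 and 13 at the minimum, and in A549 these shares are near those of all genes. The tensins, which bind β tails, differed from each other, since TNS1 rose 9.38-fold and 4.04-fold while TNS2 fell 4.54-fold and 3.71-fold.

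The genes outside these lists with log2 folds most like each subunit were found over the 4 comparisons with the controls, among 5926 genes, by the root mean square difference of the log2 fold changes. For ITGB4 they were SDC4 (0.218) and MVP (0.364), with log2 fold changes at 5 ng/mL of 1.46 and 1.09 in A549 and of -1.77 and -1.73 in BEAS-2B. IER3 (0.140) and FRMD6 (0.228) were the closest to ITGA5, STAB1 (0.162) and MICAL2 (0.196) to ITGAV, and ZNF672 (0.110) was close to ITGB1. RUNX3 (0.0772) and HERPUD1 (0.0932) were closest to ITGB5, GPS1 (0.0982) and ZNF358 (0.105) to ITGA3, and CTDSPL (0.236) and PERP (0.318) to ITGA6. For ITGA11 the closest genes were ANGPTL4 (3.09) and INHBA (4.24), but these differences depend on the pseudocount of 1. Its BEAS-2B control had 0 counts. Under the alternatives its log2 fold change there ran from 8.51 to 14.15 at 1 ng/mL and from 8.42 to 14.06 at 5 ng/mL. Whether ITGA11 lacks a near match is thus not settled by these values. With 4 values per gene from 6 libraries that share controls, a small difference is a description of these libraries.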

How the data were processed

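Raw counts per gene, 1 file per library, were deposited by the authors; the submitters' processing notes name Bowtie2, bedtools and hg19, and versions and strand use are not given in the sources used here. The study's methods name ExDEGA for its own comparisons, which were not used here. Here the counts were scaled with TMM factors (edgeR 4.0.16, R 4.3.3) over the 6 libraries to their mean effective size of 5131350. Log2 fold changes used a pseudocount of 1, and printed folds are ratios without it. Calls used the numbers of the study's criteria, a fold of 2 and a log2 value of 7, on normalized counts (24.7 CPM). The scale of the study's log2 value is not given, so the calls here need not be those of the study. With log2(CPM + 1) as the scale, 449 genes were higher and 293 lower in A549 at 5 ng/mL, against 1146 and 1220. In BEAS-2B it was 159 and 183, against 494 and 783. On that scale 4 of the 10 subunits were higher in A549 and 3 in BEAS-2B at 5 ng/mL, and 0 were lower. Intervals are exact Clopper-Pearson and Poisson intervals at 95% (scipy 1.17.1), and ratios of folds have log-normal counting intervals and were computed where the smallest of the 4 counts was at least 10. A count of 0 was set to 3 in a fold.

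With 1 library per condition no p-value was computed. All 10 members are named, other genes only from lists by function or as the 2 nearest genes by fold, among those at the minimum in both lines, and GALK1 was added after its overlap was seen. Some list genes and 1 nearest gene are not reported here. Members and lists were chosen with earlier results of these data known. Genes overlapping the 3′ ends of ITGA5, ITGA6 and ITGAV on the other strand were not analysed here. RefSeq promoter sequences come from GRCh38.p14, and no coordinate was moved between builds. The calling step was tested on simulated data. Alternatives covered DESeq2 1.42.0 size factors, other scalings, filters, pseudocounts, minimums and fold limits.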

Additional observations from a re-analysis of the deposited data

Results flagged for a closer look

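ITGB4 stood out because the treated libraries of the 2 lines moved in opposite directions. Its log2 fold changes were 0.82 at 1 ng/mL and 1.22 at 5 ng/mL in A549, and -1.59 and -2.10 in BEAS-2B. Each line has 1 control library, which both doses share, and the difference between the lines was not tested. GALK1 overlaps the 3′ end of ITGB4 on the other strand, and whether the counting used strand is not given.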

How the results depend on the processing

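No paired analysis was possible because each condition had 1 library and the labels give no replicate numbers, and for the same reason no library could be left out. All 38 member log2 fold changes kept their sign under 8 alternatives, except that of ITGB5 in BEAS-2B at 5 ng/mL, which was -0.03 with total counts; 15 of 304 values moved beyond their counting interval. With total counts, all genes at the minimum shifted by a median of -0.17 and -0.20 in A549 and -0.13 and -0.13 in BEAS-2B (log2, 1 and 5 ng/mL). The share of calls that were higher was then 32.2% and 33.8% in A549 and 27.3% and 26.9% in BEAS-2B, against 46.5%, 48.4%, 38.3% and 38.7%.

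The counts of members called differed from those reported in 38 of 120 values tried, in 21 by no more than 1.5 times and in 17 by more. The smaller changes include members higher in BEAS-2B at 5 ng/mL, which were 4, but 3 with total counts and 5 with DESeq2 size factors, upper quartile factors or low-count genes left out before TMM, and at 1 ng/mL 3, but 4 with upper quartile factors or TMM within the line. The larger changes are these. Members higher in A549 were 4 at 1 ng/mL, but 2 with the minimum required in both libraries and 1 with log2(CPM + 1) as its scale; at 5 ng/mL they were 6, but 3 with a fold limit of 3. Members lower in A549 were 1 at 1 ng/mL, but 2 with a fold limit of 1.5, 0 with a limit of 3 and 0 with log2(CPM + 1); at 5 ng/mL they were 0, but 2 with total counts and 2 with a limit of 1.5. Members higher in BEAS-2B were 3 at 1 ng/mL, but 1 with the minimum in both libraries and 5 with a limit of 1.5; at 5 ng/mL they were 4, but 2 with the minimum in both. Members lower in BEAS-2B were 2 at each dose, but 1 and 0 with the minimum in both libraries, 1 and 1 with a minimum of 8, and 0 and 0 with log2(CPM + 1). The stricter and looser rules let fewer or more genes pass by construction, whereas with total counts the rule was the same and the log2 fold changes were lower (ITGA6 -1.16 against -0.96, ITGB5 -1.06 against -0.86). The calls of all genes moved with the same rules, and with a limit of 1.5, for example, 24.1% of genes were higher in A549 at 1 ng/mL against 10.9%, and with a limit of 3 it was 3.62%.

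With 1 library per condition, differences between cultures, passages or preparations and differences between doses cannot be told apart. Depth limits ITGB6, ITGA6 in treated BEAS-2B, ITGA2 in the BEAS-2B control and ITGA11 in both controls, where counts were at or under 78.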
